A study of Mus musculus with 2 samples.

Results

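The cells described here were the prenatal stromal cells of the mouse esophagus, that is, the barcodes that carried the authors' label Stromal and the tag of the esophagus at embryonic day 15 (E15) or 19 (E19). They numbered 1086 of the 7808 cells of the series, 347 at E15 and 739 at E19. All groups were wild type C57BL/6 mice without treatment, and the esophagus, the gastroesophageal squamocolumnar junction (GE-SCJ) and the stomach of the same stages were tagged separately and sequenced in 1 library. The deposited description counts 6 mice at E15 and 2 at E19, whereas the methods speak of 3 mice. No cell can be traced to its embryo, so each stage is 1 pooled sample, nothing was tested between the stages, and all intervals cover counting error only. The embryos behind each pool, their sex and the dissection cannot be told apart from the stage.

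Fibroblasts of the developing gut wall secrete the collagens and proteoglycans of the connective tissue, and they send WNT, BMP, FGF and retinoid signals to the epithelium above them. They also receive Hedgehog ligands from that epithelium, which they answer through the receptor *Ptch1* and the *Gli* factors. In the esophagus this mesenchyme gives rise to the lamina propria and submucosa and lies next to the muscle layers, while pericytes and interstitial cells of Cajal share some of its genes.

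The E15 cells held 3809690 unique molecular identifiers (UMIs), with a median of 10573 per cell, and the E19 cells 6979256, with a median of 9172. The median mitochondrial share was 1.84% at E15 and 1.83% at E19. Levels are in CPM, the share of a gene in the summed UMIs of a set of cells, per 1000000 UMIs. Parentheses after a level hold its exact Poisson interval at 95%, and after a share its exact binomial interval. A log2 ratio is E19 over E15 with 1 UMI added to each sum, so that a positive value means more at E19. A gene is counted as higher or lower where the ratio reached 2-fold. Counting error aside, a sum over cells cannot tell fewer expressing cells from less RNA per cell.

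Fibroblast markers were compared between these cells and the other labels of the esophagus. *Col3a1*, a fibrillar collagen chain of soft tissue (chromosome 1, 45311538 to 45349706, on GRCm38), was at 8535 CPM (8442 to 8628) at E15 and 16265 CPM (16170 to 16360) at E19. *Col1a1* was at 8191 CPM and 11952 CPM, and the collagen-binding proteoglycan gene *Dcn* at 4644 CPM and 6728 CPM. *Pdgfra*, the receptor that marks fibroblasts, was at 251 CPM (235 to 267) and 292 CPM (280 to 305). Over both stages the level of *Pdgfra* was 278 CPM in these cells, against 19.4 CPM in cells of the esophagus with the smooth muscle label, 12.1 CPM in squamous epithelium, 27.1 CPM in immune cells and 50.6 CPM in columnar epithelium. *Postn*, another gene of the marker list, was at 159 CPM in these cells and at 249 CPM in cells with the neural label. After every cell was thinned to 5000 UMIs, *Pdgfra* had a UMI in 69.6% of E15 cells (64.2 to 74.5) and 69.3% of E19 cells (65.6 to 72.7). In immune cells of all regions and stages the share was 3.16%. *Col1a1* had a UMI in 100% and 99.9% of these cells and in 46.6% of the thinned immune cells, so a UMI of *Col1a1* alone marks no fibroblast. All shares of thinned immune cells, here and below, come from the immune label of all regions and stages of the series. Pup and adult mice are included, whereas the 27.1 CPM above is from the esophagus at E15 and E19. These 354 immune cells had a median of 8266.5 UMIs, and 253 of them were deep enough to thin.

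Markers of other cell types were summed in the same way. The 6 neural markers summed to 11.3 CPM at E15 and 7.02 CPM at E19, against 1698 CPM in the neural cells of the esophagus. The 6 endothelial markers summed to 13.6 and 11.0 CPM, against 3488 CPM in endothelial cells, and the 6 immune markers to 42.3 and 16.6 CPM, against 6022 CPM. The 7 skeletal muscle markers summed to 9.19 and 8.74 CPM, and *Myod1* and *Pax7* were at 0 at E15. None of the 17 genes of a longer skeletal muscle list reached 100 UMIs, and the whole list summed to 14.2 and 18.2 CPM. The 6 epithelial markers summed to 139 and 182 CPM, led by the keratin *Krt8* with 63.8 and 82.1 CPM, against 2861 CPM in epithelial cells, and 41.2% and 40.1% of the stromal cells had at least 2 UMIs of these markers. The sums were higher for the 6 smooth muscle markers, at 1455 and 2435 CPM, for the 6 pericyte markers, at 241 and 203 CPM, and for the 5 erythroid genes, at 383 and 1813 CPM. In cells with the smooth muscle label, the same smooth muscle markers summed to 34701 CPM.

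The step from E15 to E19 was broad but moderate. Of 9225 genes with at least 100 UMIs over both stages, 171 were at least 2-fold higher at E19 (1.85% of the genes tested) and 121 at least 2-fold lower (1.31%). The median log2 ratio of all genes was -0.10, and the quartiles were -0.29 and 0.10. Most genes thus lay below 0, and the counts of list members below 0 given further on are to be read beside this. Scaled by median ratios instead of total UMIs, 207 genes were higher and 88 lower.

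**Figure D1:**
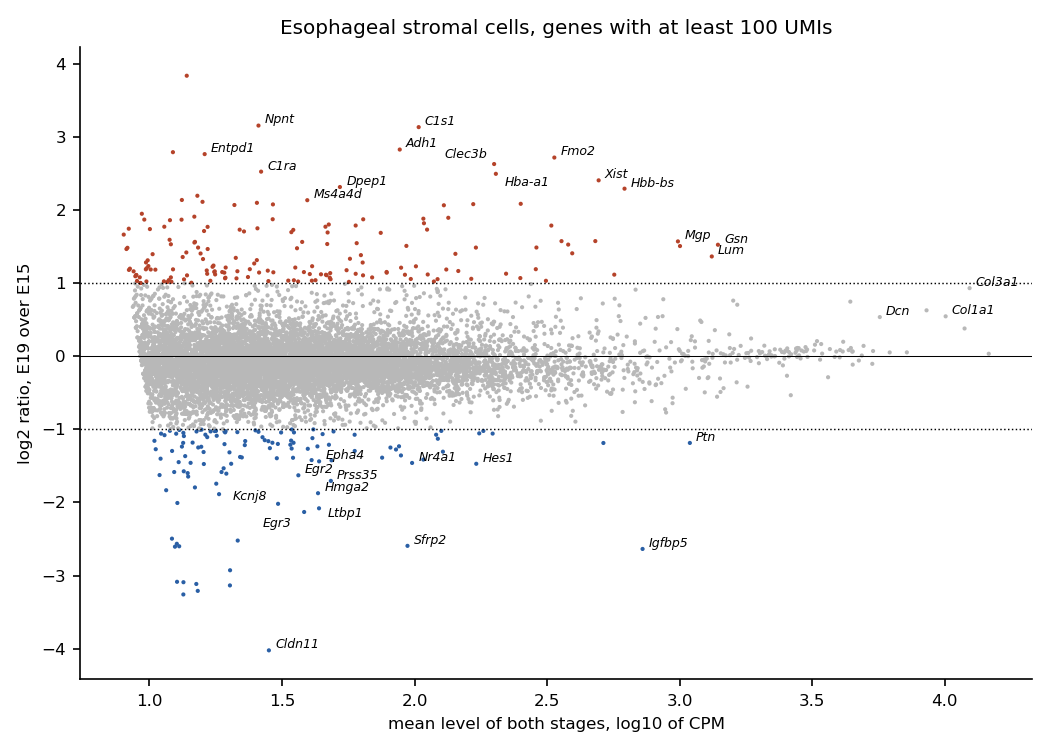
Mean level of each gene over both stages (log10 of CPM) against its log2 ratio of E19 over E15, for the 9225 genes with at least 100 UMIs in esophageal stromal cells. Red points (171) are at least 2-fold higher and blue points (121) at least 2-fold lower at E19, and dotted lines mark 2-fold. *Igfbp5* stands out among abundant genes on the lower side and *Fmo2*, *Clec3b* and *C1s1* on the upper side.

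Among the 12 genes with the largest ratio toward E19 and at least 200 UMIs, 4 had a level above 100 CPM at that stage without being hemoglobin or sex-linked genes. *Fmo2*, a flavin monooxygenase (chromosome 1, 162874317 to 162898726), was at 88.7 CPM (79.5 to 98.7) at E15 and 585 CPM (567 to 603) at E19. *Clec3b*, which encodes tetranectin, a plasminogen-binding matrix protein (chromosome 9, 123150946 to 123157432), was at 55.4 CPM (48.2 to 63.4) and 344 CPM (330 to 358). *C1s1*, a serine protease of the classical complement pathway (chromosome 6, 124530345 to 124542359), was at 21.0 CPM (16.7 to 26.1) and 186 CPM (176 to 197). The fourth was *Adh1*, an alcohol dehydrogenase that also oxidizes retinol, at 21.5 CPM (17.1 to 26.7) and 154 CPM (145 to 164). Their log2 ratios were 2.72 (2.56 to 2.88) for *Fmo2* and 2.63 (2.42 to 2.84) for *Clec3b*. Those of *C1s1* and *Adh1* were 3.13 (2.81 to 3.47) and 2.83. The genes were picked by the size of these ratios, so the gaps between their levels are part of the choice. Within the authors' cluster 3, which held 50 of the E19 cells and is described further on, *Clec3b* had the other sign, at 98.4 CPM and 14.8 CPM with a log2 ratio of -2.48.

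These genes spread over cells as well as over UMIs. In cells thinned to 5000 UMIs, *Fmo2* had a UMI in 21.7% of E15 cells (17.4 to 26.6) and 74.6% of E19 cells (71.1 to 77.8), against 2.77% of immune cells. For *Clec3b* the shares were 14.3% (10.7 to 18.6) and 60.6% (56.8 to 64.3), against 1.98% of immune cells. For *C1s1* they were 9.94% and 51.0%, against 1.58% of immune cells, and for *Adh1* 8.39% and 47.0%, against 1.98%. The same direction was seen at lower levels for *C1ra*, the partner protease of *C1s1* (7.61 and 45.1 CPM), *Dpep1*, a dipeptidase (17.3 and 87.3 CPM), *Entpd1*, an ectonucleotidase (3.94 and 28.4 CPM), and *Ms4a4d* (14.4 and 64.3 CPM). *Npnt*, which encodes the integrin ligand nephronectin, was at 4.99 CPM (3.00 to 7.79) and 46.6 CPM (41.6 to 51.9), in 1.24% and 9.45% of thinned cells, against 3.56% of immune cells (1.64 to 6.65), so that its E15 share is not above that class.

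Matrix genes carried the largest mass of RNA that differed. The 13 small leucine-rich proteoglycans, which bind collagen fibrils and set their diameter, summed to 6159 CPM at E15 and 10050.4 CPM at E19. Of their 9 measured members, 6 were at least 2-fold higher at E19, none lower, and the median log2 ratio was 1.28, against -0.10 for all genes. *Lum* (lumican) was at 739 CPM (712 to 767) and 1903 CPM (1871 to 1936). *Aspn* (asporin) was at 147 CPM (135 to 160) and 509 CPM (492 to 526), with a UMI in 25.5% and 58.5% of thinned cells and in 5.93% of immune cells. *Podn* and *Ecm2* had log2 ratios of 1.66 and 1.87 from few UMIs, and *Dcn*, the most abundant member, had 0.53 (0.51 to 0.56). With the cells positive for mitosis genes left out, the median over the members that still had 100 UMIs was 0.69.

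Of 23 measured collagen genes, 5 were at least 2-fold higher and 2 lower, with a median of 0.52. The abundant fibrillar chains lay in a narrow range, with log2 ratios of 0.93 (0.91 to 0.95) for *Col3a1*, 0.63 (0.61 to 0.65) for *Col1a2* and 0.55 (0.53 to 0.56) for *Col1a1*. The largest ratios lay in minor collagens. *Col15a1*, a basement membrane zone collagen, was at 7.87 and 34.0 CPM, and *Col8a1*, a short-chain network collagen, at 45.9 CPM (39.4 to 53.3) and 170 CPM (160 to 180). On the other side, *Col26a1* was at 22.8 CPM (18.3 to 28.2) at E15 and 2.58 CPM (1.53 to 4.08) at E19, and *Col13a1*, a transmembrane collagen, at 40.2 and 16.8 CPM. Of 16 measured collagen processing genes, 2 were higher and none lower, the lysyl oxidase family member *Loxl1* (80.3 and 183 CPM) and the procollagen protease *Adamts2* (79.3 and 165 CPM).

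Among 17 measured genes of elastic fibers and microfibrils, 2 were higher and 3 lower. *Mfap5*, a microfibril glycoprotein, was at 522 CPM (499 to 546) and 1483 CPM (1455 to 1512). *Emilin2*, *Ltbp1* and *Fbln2* lay on the E15 side, with *Fbln2* (fibulin 2) at 157 and 58.9 CPM. Within the authors' cluster 1, described further on, 2 of 15 measured members were at least 2-fold higher and none lower. The log2 ratio of *Ltbp1* was -0.87 there. None of 16 measured genes of the provisional and adhesive matrix reached 2-fold over all cells, and their median was 0.04. Within cluster 1, 2 of the 16 were at least 2-fold higher and none lower, with a median of 0.42. *Sparc*, a collagen chaperone outside the cell, was at 3288 and 5515 CPM in this list. Of 18 measured matrix proteases and inhibitors, 3 were higher, *Htra1*, *Adamts5* and *Mmp23*, with log2 ratios of 1.79, 1.40 and 1.38. Within the authors' cluster 3 *Adamts5* had the other sign.

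Genes that mark connective tissue fibroblasts after birth were the other list with a median above 1. Of 17 measured members, 9 were at least 2-fold higher at E19 and none lower, with a median of 1.02. Their summed level was 2289 CPM at E15 and 5907 CPM at E19. *Gsn* (gelsolin, an actin-severing protein) was at 719 CPM (693 to 747) and 2069 CPM (2035 to 2103). *Mgp* (matrix Gla protein, an inhibitor of calcification) was at 496 CPM (474 to 519) and 1473 CPM (1445 to 1502). *Dpt* (dermatopontin) was at 180 CPM (167 to 194) and 536 CPM (519 to 554), and the superoxide dismutase gene *Sod3* at 6.04 and 23.5 CPM. Of 17 measured complement, chemokine and interferon genes, 5 were higher and 1 lower. Beside *C1s1* and *C1ra*, the higher genes included those of the membrane proteins *Ifitm1* (215 and 571 CPM) and *Ifitm3* (175 and 399 CPM). The chemokine gene *Cxcl13* was at 36.2 CPM at E15 and 4.01 CPM at E19.

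**Figure D2:**
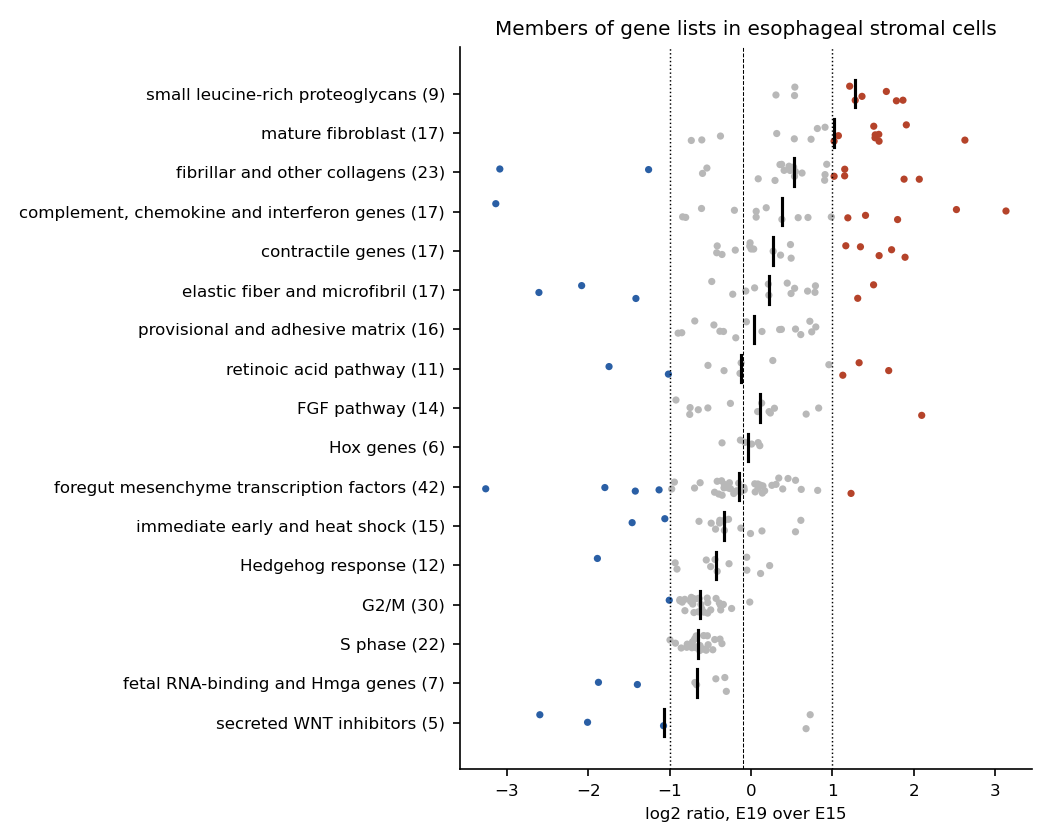
Log2 ratio of E19 over E15 for each measured member (point) of 17 gene lists in esophageal stromal cells, with the number of members in parentheses and the list median as a black bar. The dashed line is the median of all genes (-0.10) and dotted lines mark 2-fold. The proteoglycan and mature fibroblast medians lie above 1, while the S phase and G2/M members lie below 0.

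Among the 121 genes of the E15 side, the largest difference in CPM was that of *Igfbp5*, which encodes a secreted binding protein of insulin-like growth factors (chromosome 1, 72857932 to 72874884). Its level was 1248 CPM (1213 to 1284) at E15 and 201 CPM (190 to 212) at E19, and its log2 ratio -2.64 (-2.72 to -2.55). Within the authors' cluster 1, described further on, its log2 ratio was only -0.26. The authors' cluster 3 held 39.2% of the E15 cells and 6.77% of the E19 cells. *Cldn11*, a claudin of tight junctions (chromosome 3, 31149920 to 31164324), had the largest ratio of all genes on this side, with 53.3 CPM (46.2 to 61.1) and 3.15 CPM (1.98 to 4.77). Its UMIs were in 15.8% of thinned E15 cells and 1.18% of E19 cells (0.512 to 2.32), and in 0 of 253 thinned immune cells (exact upper limit 1.45% of cells with a UMI). *Sfrp2*, a secreted WNT inhibitor, was at 161 CPM (149 to 175) and 26.7 CPM (23.0 to 30.8), and *Kcnj8*, a potassium channel subunit of pericytes, at 49.1 and 12.04 CPM. The other genes named on this side by the size of their ratio were *Egr3*, *Egr2* and *Nr4a1*, immediate early transcription factors, the Notch target *Hes1*, the latent TGF-beta binding protein gene *Ltbp1*, the serine protease gene *Prss35* and the ephrin receptor gene *Epha4*, with log2 ratios from -1.44 to -2.13.

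*Hmga2*, a chromatin protein of fetal and dividing cells (chromosome 10, 120361275 to 120476469), was at 68.0 CPM (60.0 to 76.8) and 18.5 CPM (15.4 to 21.96). It belongs to a list of fetal RNA-binding and Hmga genes, of which 7 were measured. All 7 had a ratio below 0, 2 were at least 2-fold lower, and the median was -0.67, against -0.10 for all genes. The second of the 2 was *Igf2bp1*, an mRNA-binding protein of embryonic tissue, at 43.8 CPM (37.4 to 51.0) and 16.6 CPM (13.7 to 19.9). Among the Sox factors *Sox11*, a gene of immature cells, was at 114 CPM (104 to 125) and 48.0 CPM (43.0 to 53.4). The heparin-binding growth factors *Ptn* (pleiotrophin) and *Mdk* (midkine) were at 1518 and 667 CPM and at 1099 and 664 CPM. *Igf2*, an imprinted growth factor gene, was at 526 and 283 CPM, while *Igf1* was at 1703 and 2015 CPM. Within the authors' cluster 1, described further on, the log2 ratio of *Igf2* was -0.05, against -0.89 in all cells. The Hox genes, which keep the position along the gut, stayed close, with none of 6 measured members past 2-fold and a median of -0.03.

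All 22 measured S phase genes had a log2 ratio below 0, with a median of -0.65, and all 30 measured G2/M genes as well, with a median of -0.63. None of these 52 genes was higher and 1 was at least 2-fold lower, *Aurka*, the mitotic Aurora kinase A. *Aurka* was at 21.0 CPM (16.7 to 26.1) at E15 and 10.5 CPM (8.20 to 13.2) at E19. *Plk1*, the Polo-like kinase of mitotic entry, was at 20.7 and 11.3 CPM. The spindle protein gene *Tacc3* was at 44.6 and 24.4 CPM, *Birc5* (survivin) at 118 and 65.5 CPM, and the topoisomerase gene *Top2a* at 249 CPM (233 to 265) and 150 CPM (141 to 159). The direction of both medians depended on which cells were kept. Within the authors' cluster 3 the S phase median was 0.22 and the G2/M median -0.68. With all cells left out that carried 2 or more UMIs of another type's markers (245 at E15 and 505 at E19), the G2/M median was 0.050 over the members that still had 100 UMIs.

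Promoters of many mitosis genes carry a short element called CHR and CCAAT boxes nearby. The promoters of the 4 G2/M genes with the largest ratios are shown because these members share a direction in the data. They run from 250 bases before to 50 bases after the start of the gene, 5′ to 3′ on the strand of the gene, from RefSeq on GRCm38.p6. *Aurka* is at chr2:172370521-172370820 on the minus strand, *Plk1* at chr7:122159185-122159484, *Tacc3* at chr5:33657878-33658177 and *Birc5* at chr11:117848987-117849286, all on the plus strand. Capitals mark the letters that were searched on both strands, which were TTTGAA for the CHR and TTCGAA for a variant form of it, CCAAT for the CCAAT box, GGCGG for the core of a GC box, and TATAAA for the TATA box. None of these letters overlapped in the 4 promoters.
Aurka: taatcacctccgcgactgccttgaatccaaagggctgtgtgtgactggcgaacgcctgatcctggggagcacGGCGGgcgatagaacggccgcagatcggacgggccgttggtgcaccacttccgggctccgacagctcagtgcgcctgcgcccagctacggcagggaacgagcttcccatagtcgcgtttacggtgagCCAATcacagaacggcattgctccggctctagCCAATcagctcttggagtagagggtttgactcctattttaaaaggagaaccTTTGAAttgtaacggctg
Plk1: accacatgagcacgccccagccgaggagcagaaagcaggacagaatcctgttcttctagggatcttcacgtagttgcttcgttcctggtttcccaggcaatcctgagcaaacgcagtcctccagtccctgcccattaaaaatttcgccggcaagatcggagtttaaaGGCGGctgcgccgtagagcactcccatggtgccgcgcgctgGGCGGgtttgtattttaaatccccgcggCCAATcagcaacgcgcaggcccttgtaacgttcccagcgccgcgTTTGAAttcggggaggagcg
Tacc3: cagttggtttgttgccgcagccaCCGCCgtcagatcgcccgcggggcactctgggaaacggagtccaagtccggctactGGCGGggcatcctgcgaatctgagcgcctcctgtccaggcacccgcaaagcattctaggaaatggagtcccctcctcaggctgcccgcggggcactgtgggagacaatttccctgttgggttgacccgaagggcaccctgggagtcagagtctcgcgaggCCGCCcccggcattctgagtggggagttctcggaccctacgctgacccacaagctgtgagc
Birc5: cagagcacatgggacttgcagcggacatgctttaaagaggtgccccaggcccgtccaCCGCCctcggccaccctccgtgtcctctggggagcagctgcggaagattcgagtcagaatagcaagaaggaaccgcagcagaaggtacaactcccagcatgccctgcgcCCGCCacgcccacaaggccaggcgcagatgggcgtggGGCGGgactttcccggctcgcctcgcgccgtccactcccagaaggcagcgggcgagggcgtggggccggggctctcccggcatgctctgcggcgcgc

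*Aurka* held 2 CCAAT matches, which began 51 and 19 bases before the start, and TTTGAA 32 bases after it. *Plk1* held 1 CCAAT match, 14 bases before the start, and TTTGAA 30 bases after it. GGCGG matched once in *Aurka* and at 2 places in *Plk1*. *Tacc3* and *Birc5* held 3 GGCGG matches each and none of the other letters in this window. Of 27 G2/M genes with a promoter in the table, 20 (74.1%) held TTTGAA and 20 (74.1%) a CCAAT box, and 18 (66.7%) held the box together with either form of the CHR. In all 32851 promoters of the same length the shares were 17.9% for TTTGAA, 37.4% for the CCAAT box and 7.52% for the box with either form. TTCGAA was in 3 of the 27 (11.1%, 1.56% of all), GGCGG in 24 (88.9%, 48.8% of all) and TATAAA in none (13.6% of all). A match is a description of letters, not of a bound site.

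Fewer E19 cells carried mitosis RNA. A cell was counted as positive with at least 2 UMIs over the 30 G2/M genes. At their own depth, 205 of 347 E15 cells were positive (59.1%, 53.7 to 64.3) and 300 of 739 E19 cells (40.6%, 37.0 to 44.2). Thinned to 5000 UMIs per cell, with 25 and 62 shallower cells left out, the shares were 41.3% (35.9 to 46.9) and 24.8% (21.6 to 28.2). The authors' phase calls, which are scored from related genes, put 14.1% of E15 cells and 7.04% of E19 cells in G2/M and 24.2% and 14.9% in S phase. In the stroma of the GE-SCJ the thinned share was 46.0% (40.5 to 51.6) at E15 and 40.6% (36.5 to 44.9) at E19, and in the stomach 44.6% (39.1 to 50.2) and 40.1% (36.2 to 44.1). At E15 the 3 thinned shares lay between 41.3% and 46.0%, while at E19 the esophageal share was below both others. Each region and stage is 1 pool, so the intervals do not measure how pools vary, and no difference between regions was tested. The authors' cluster 3, described further on, held 6.77% of the E19 stromal cells in the esophagus, 34.7% in the GE-SCJ and 24.1% in the stomach. The part of this mix in the shares was not tested. Cells with the smooth muscle label of the esophagus had thinned shares of 40.0% (29.8 to 50.9) and 42.5% (27.0 to 59.1).

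**Figure D3:**
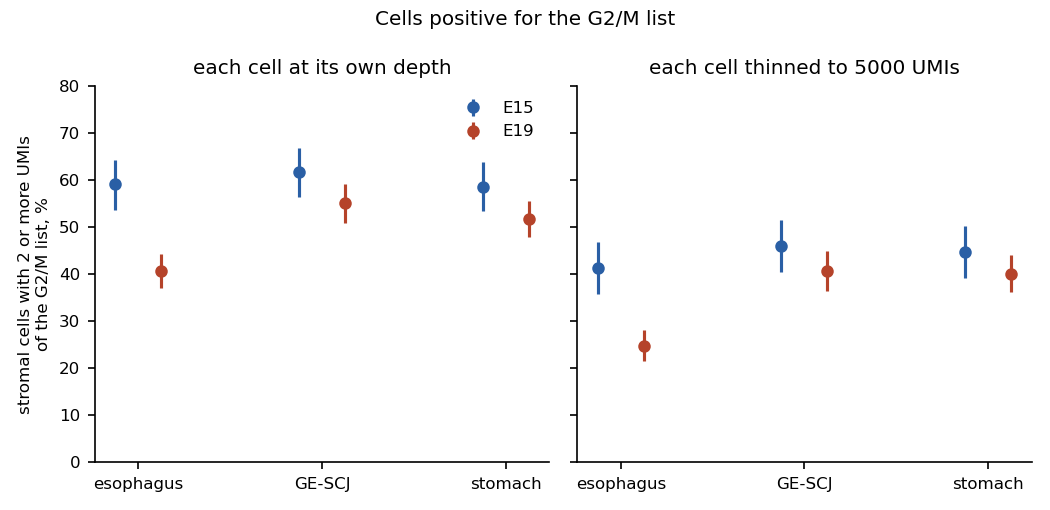
Percent of stromal cells with 2 or more UMIs of the G2/M list in the esophagus, GE-SCJ and stomach at E15 (blue) and E19 (red), at each cell's own depth on the left and thinned to 5000 UMIs on the right. Bars are exact 95% binomial intervals. The E19 esophagus (24.8% thinned) lies below the other 5 groups, which range from 40.1% to 46.0%.

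In the authors' clustering of the whole series, 2 clusters held nearly all of the esophageal stromal cells. Cluster 1 held 204 E15 cells and 678 E19 cells, and cluster 3 held 136 and 50, with 18 cells elsewhere. Of all prenatal stromal cells in cluster 1, 99.1% came from the esophagus, whereas of cluster 3 only 23.3% did and the rest came from the GE-SCJ and stomach. The clusters were drawn from the same counts, so their genes describe them and their sizes are no measure of change between the pools. Cluster 1 made up 59.9% of the E15 UMIs and 93.1% of the E19 UMIs of the esophageal stroma.

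At E15, cluster 1 was led by *Col6a4*, *Foxl1*, *Cldn11*, *Zfp536* and *Cxcl14*, and cluster 3 by *Ccn3*, *Ebf2*, *Ecrg4*, *Ren1* and *Gdf10*. *Foxl1*, a forkhead factor of Hedgehog-responsive fibroblasts under the gut epithelium, was at 64.8 CPM in cluster 1 and 4.098 CPM in cluster 3. *Ptch1* was at 553 and 108 CPM, *Bmp4* at 236 and 62.8 CPM, and *Sostdc1*, an antagonist of BMP and WNT ligands, at 254 and 27.3 CPM. In the other direction, *Igfbp5* was at 159 CPM in cluster 1 and 2976 CPM in cluster 3, *Ptn* at 605 and 2981 CPM, and the WNT amplifier *Rspo3* at 2.19 and 68.3 CPM. Summed pericyte markers were at 90.7 and 467 CPM, and summed smooth muscle markers at 1958 and 663 CPM.

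Of the 121 genes lower at E19 in the whole stroma, 58 (47.9%) were at least 2-fold higher in cluster 3 than in cluster 1 at E15, compared with 382 of all 9225 genes (4.14%). In the other direction, 7 of the 121 (5.79%) were higher in cluster 1, compared with 276 of all genes (2.99%). Of the 171 genes higher at E19, 28 (16.4%) were higher in cluster 3 and 39 (22.8%) in cluster 1. In cluster 3, with its 50 E19 cells, 3080 genes had 100 UMIs, of which 75 (2.44%) were higher and 115 (3.73%) lower. Within cluster 1 alone, 8498 genes had 100 UMIs, of which 201 (2.37%) were at least 2-fold higher at E19 and 88 (1.04%) lower. *Igfbp5* was then at 159 CPM at E15 and 134 CPM at E19, with a log2 ratio of -0.26 (-0.44 to -0.08). *Ptn* was at 605 and 577 CPM, *Fbln2* at 65.7 and 61.4 CPM, and *Sfrp2* at 23.2 and 28.0 CPM.

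*Postn* (periostin, a matrix protein of growing connective tissue) had ratios of opposite sign in the 2 clusters. Its level in all cells was 187 CPM (174 to 201) at E15 and 144 CPM (135 to 153) at E19. Within cluster 1 it was at 18.0 and 142 CPM, a log2 ratio of 2.95 (2.51 to 3.44), and within cluster 3 at 435 and 192 CPM. The imprinted gene *Dlk1* was at 1379 and 1697 CPM in all cells, at 696 and 1655 CPM in cluster 1 and at 2469 and 2566 CPM in cluster 3.

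Within cluster 1, *Clec3b* was at 29.3 and 367 CPM, a log2 ratio of 3.62 (3.28 to 3.99), *Mgp* at 228 and 1286 CPM, *Aspn* at 108 and 512 CPM, and *C1s1* at 26.7 and 197 CPM. Of the 17 measured mature fibroblast genes, 11 were at least 2-fold higher and 1 lower in cluster 1, with a median of 1.26. The proteoglycan median was 0.99 over 8 genes, with 4 higher. Of 22 collagen genes 3 were higher and 1 lower, and of 16 collagen processing genes 1 was higher. On the E15 side, *Cldn11* was at 84.97 and 3.38 CPM, a ratio of -4.59 (-5.28 to -3.97), *Hmga2* at 79.7 and 17.5 CPM, *Foxl1* at 64.8 and 18.9 CPM, and *Sostdc1* at 254 and 82.8 CPM. The G2/M list had a median of -0.71 over 30 genes in cluster 1, and the thinned share of positive cells there was 42.3% (35.2 to 49.6) and 25.7% (22.3 to 29.3). In cluster 3 the thinned share was 37.9% of 124 E15 cells (29.3 to 47.1) and 47.2% of 36 E19 cells (30.4 to 64.5), and unthinned 54.4% and 40.0%. *Mfap5* had 1.51 in all cells, 1.27 in cluster 1 and -1.85 in cluster 3.

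**Figure D4:**
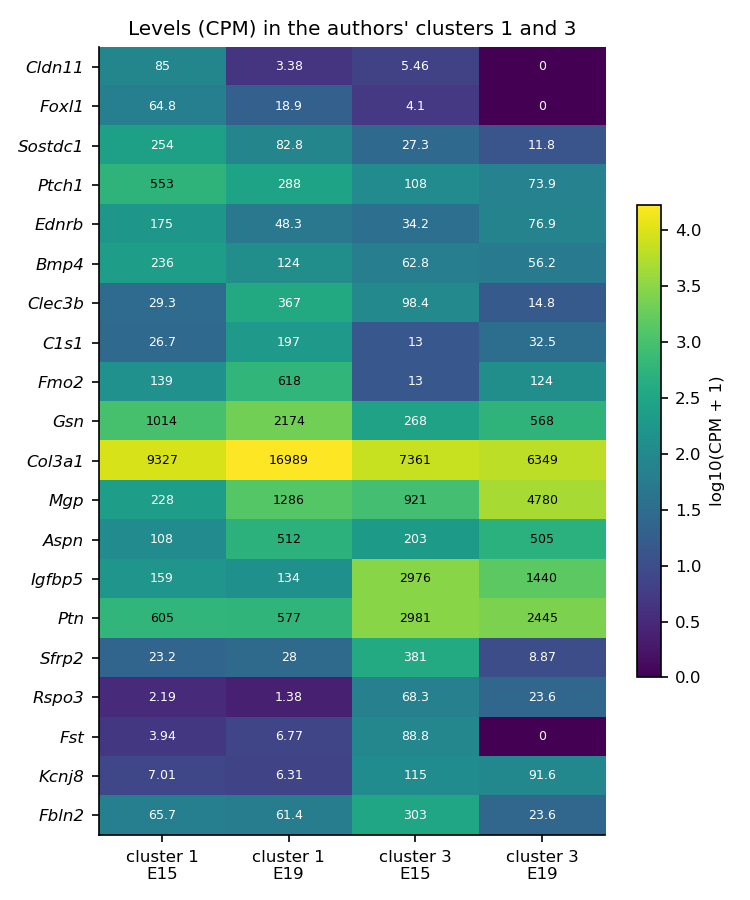
Levels in CPM (numbers) and as log10(CPM + 1) (color) of 20 genes in esophageal stromal cells of the authors' clusters 1 and 3 at E15 and E19. A level of 0 in cluster 3 at E19 rests on 338308 UMIs, which allows up to 8.87 CPM. *Igfbp5*, *Ptn*, *Fbln2* and *Kcnj8* hardly differ between the stages within cluster 1, while *Cldn11* and *Clec3b* differ in opposite directions.

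Both endothelin receptor genes were lower at E19 over all cells and in cluster 1, and not in cluster 3. *Ednrb*, receptor for all endothelins (chromosome 14, 103814625 to 103844402), was at 120 CPM (110 to 132) and 49.7 CPM (44.6 to 55.2) over all cells and at 175 and 48.3 CPM in cluster 1. *Ednra* was at 70.9 CPM (62.7 to 79.8) and 26.4 CPM (22.7 to 30.5), with a ratio of -1.68 (-2.10 to -1.27) in cluster 1 and of 0.78 in cluster 3. In cluster 3 *Ednrb* was at 34.2 and 76.9 CPM, from 76 UMIs. The ligand gene *Edn3* was at 37.5 and 16.9 CPM. Of 14 measured genes that signal to nerves and vessels, these 3 and the axon guidance gene *Slit2* were at least 2-fold lower, and *Slit2* had a ratio of 0.18 within cluster 1. On the other side were *Sema3c*, a semaphorin, at 162 and 339 CPM, and the neurotrophic ligand *Nrtn*, with a ratio of 1.12. Within cluster 3 *Sema3c* had the other sign. In thinned cells *Ednrb* had a UMI in 25.2% and 12.6% of cells. In thinned immune cells of all regions and stages the share was 24.9%, and the stromal shares do not lie above it beyond counting error.

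Of 12 measured Hedgehog response genes, none was higher and 1 was lower, *Cdon*, which lay in cluster 3. The receptor and target *Ptch1* was at 379 CPM (359 to 399) and 279 CPM (267 to 292), and the effector *Gli1* at 60.1 CPM (52.6 to 68.4) and 31.5 CPM (27.5 to 36.0). Within cluster 1 the ratios were -0.94 (-1.04 to -0.84) for *Ptch1* and -1.02 (-1.33 to -0.71) for *Gli1*. *Bmp4*, a ligand that Hedgehog signals raise in gut mesenchyme, was at 168 and 120 CPM, with -0.93 (-1.09 to -0.77) in cluster 1. Of 5 measured secreted WNT inhibitors, 3 were lower, *Sfrp2*, *Dkk2* and *Sostdc1*, of which *Sostdc1* had a ratio of -1.62 and *Sfrp2* one of 0.25 in cluster 1, where *Dkk2* had 32 UMIs, under the minimum of 100. *Sfrp1*, in contrast, was at 220 and 351 CPM over all cells. Among 13 measured BMP antagonists and response genes, *Fst* (follistatin) was at 36.7 CPM (30.9 to 43.4) and 6.30 CPM (4.58 to 8.46), in cluster 3 at 88.8 CPM at E15. None of the 13 was at least 2-fold higher, though 9 had a ratio above 0 and the median was 0.25. Within cluster 1, 3 of 12 were at least 2-fold higher and none lower.

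Of 14 measured FGF pathway genes, 1 was past 2-fold, *Fgf7*, the keratinocyte growth factor that fibroblasts send to epithelium. It was at 9.45 CPM (6.62 to 13.1) at E15 and 41.4 CPM (36.8 to 46.5) at E19, with a UMI in 3.11% and 17.6% of thinned cells and in 0.395% of immune cells. Retinoic acid genes split over all cells. *Aldh1a2*, which makes retinoic acid, was at 139 CPM (127 to 151) and 304 CPM (291 to 317), *Aldh1a1* at 8.92 and 22.9 CPM, and *Dhrs3*, which turns retinal back into retinol, at 22.05 CPM (17.6 to 27.3) and 71.9 CPM (65.8 to 78.5). *Crabp2*, a carrier of retinoic acid to the nucleus, was at 27.6 and 8.17 CPM and *Rdh10*, a retinol dehydrogenase, had a ratio of -1.01. Thus 3 of 11 measured members were higher and 2 lower. Within the authors' cluster 1, 2 of 10 measured members were at least 2-fold higher and none lower. The ratio of *Aldh1a2* was 0.65 there, against 1.13 over all cells. In the IGF pathway *Pappa2*, a protease that cleaves *Igfbp5* protein, had 6 UMIs at E15 (1.57 CPM) and 26.1 CPM (22.4 to 30.2) at E19, a ratio of 3.83 (2.76 to 5.17).

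Clustering each stage on its own (Leiden algorithm, 2000 variable genes) gave 5 groups at E15 and 6 at E19, which describe how the cells vary. At E15 a group of 49 cells was led by mitosis genes such as *Ccnb1* and *Nusap1* and came from both of the authors' clusters. A group of 101 cells was led by *Sema3e*, *Hpgd* and *Fmo2*, with 225 CPM of *Fmo2* against 39.6 CPM in the other cells. A group of 79 cells was led by *Agt*, *Fbxl22* and *Myocd*, the coactivator of smooth muscle genes, and had 3231 CPM of summed smooth muscle markers. The remaining 2 groups lay in cluster 3. One of 54 cells was led by *Ren1* (150 CPM against 0.955), *Stmn2* and the T cell receptor gene *Trac*, with *Lyz2* also among its 10 leading genes, pericyte markers at 512 CPM and immune markers at 157 CPM against 17.8 CPM in the other cells. The other, of 64 cells, was led by *Kit* (170 CPM against 14.4), *Atp2a3* and *Cdo1*.

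At E19 a group of 174 cells was led by *Frem2*, *Tagln* and *Myh11*. It had 2570 CPM of *Tagln* against 101 CPM in the rest and 7906 CPM of summed smooth muscle markers, below the 34701 CPM of the smooth muscle label, beside 37945 CPM of fibroblast markers. A group of 153 cells was led by *Pcdh15*, *Tnfrsf11b* and *Krt15*, with 60845 CPM of fibroblast markers and 186 CPM of smooth muscle markers. A group of 138 cells was led by *Clec11a*, *Wnt2* and *Lypd1*, and one of 89 cells by mitosis genes such as *Nusap1* and *Ttk*. A group of 133 cells was led by *Slpi*, *Ttr* and *Hbb-bt*, followed by immediate early genes. Its median depth was 7241 UMIs, and its erythroid genes summed to 3496 CPM. The smallest group, of 52 cells, was led by *Gdf10*, *Fgl2*, *Kit* and *Igfbp3*, and 78.8% of it lay in cluster 3. The 4 interstitial cell of Cajal markers, *Kit*, *Ano1*, *Etv1* and *Gja1*, summed to 573 CPM there and to at most 79.5 CPM in the other E19 groups, and fibroblast markers to 21355 CPM. It was left unnamed.

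Of 17 measured contractile genes, 5 were at least 2-fold higher at E19 and none lower, with *Myh11*, the smooth muscle myosin heavy chain, at 56.7 CPM (49.4 to 64.8) and 211 CPM (201 to 222). *Tagln* was at 241 CPM (226 to 258) and 720 CPM (699.8 to 740) and *Cnn1* at 16.0 and 53.7 CPM. *Tagln* had a UMI in 37.9% of thinned cells at E15 and 38.4% at E19, with 17.0% in immune cells, and *Myh11* in 13.7% (10.1 to 17.9) and 23.9% (20.8 to 27.3), with 11.5% in immune cells. *Acta2* was at 1006 and 1215 CPM. The direction depended on the border between the labels. When the cells with the smooth muscle label were joined to the stroma, the log2 ratios were -0.87 for *Myh11*, -0.83 for *Tagln* and -0.96 for *Cnn1*.

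The same stages were compared in the stroma of the other regions. In the GE-SCJ, 146 of 9094 genes (1.61%) were at least 2-fold higher at E19 and 31 (0.341%) lower. In the stomach the numbers were 179 (1.91%) and 81 (0.862%) of 9394. Of the 171 genes higher in the esophagus, 117 had 100 UMIs in the GE-SCJ, where 58 were also past 2-fold and 110 had the same sign. In the stomach 113 had 100 UMIs, of which 58 were past 2-fold and 103 had the same sign. Of the 121 genes lower in the esophagus, 105 had 100 UMIs in the GE-SCJ, where 6 were past 2-fold the same way, 5 past 2-fold the opposite way and 70 had the same sign. In the stomach 108 had 100 UMIs, of which 24 were past 2-fold the same way, 2 the opposite way and 83 had the same sign. Their median log2 ratio was -1.24 in the esophagus, -0.18 in the GE-SCJ and -0.46 in the stomach. The median log2 ratio of all genes was -0.05 in the GE-SCJ and -0.08 in the stomach, so most genes there lay below 0. A shared sign on the lower side is thus common among all genes, and their share by sign was not counted. No difference between the regions was tested.

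*Clec3b*, *C1s1*, *Fmo2*, *Aspn*, *Fgf7* and *Hmga2* had the same direction past 2-fold in all 3 regions. *Clec3b* had 3.26 (2.76 to 3.81) in the GE-SCJ and 3.19 (2.39 to 4.13) in the stomach, and *Hmga2* had -2.15 (-2.40 to -1.90) and -1.60 (-1.80 to -1.40). *Igfbp5* had the same sign at a smaller size, with -0.16 (-0.22 to -0.10) in the GE-SCJ and -0.13 (-0.21 to -0.06) in the stomach. The retinal reductase gene *Dhrs3* had 1.69 in the esophagus and -0.14 (-0.46 to 0.19) and 0.04 (-0.29 to 0.38) elsewhere. *Col8a1* had 1.88, 0.56 (0.32 to 0.81) and -0.95 (-1.11 to -0.78). *Ednrb* was at 133 and 203 CPM in the GE-SCJ and at 135 and 309 CPM in the stomach, against 120 and 49.7 CPM in the esophagus. *Ptch1* and *Bmp4* had ratios of 0.59 (0.51 to 0.67) and 0.47 (0.37 to 0.57) in the stomach, on the other side of 0 from the esophagus. *Tnc* (tenascin C), at 32.0 and 17.8 CPM in the esophagus, was at 22.5 and 99.8 CPM in the GE-SCJ and at 16.0 and 108 CPM in the stomach.

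**Figure D5:**
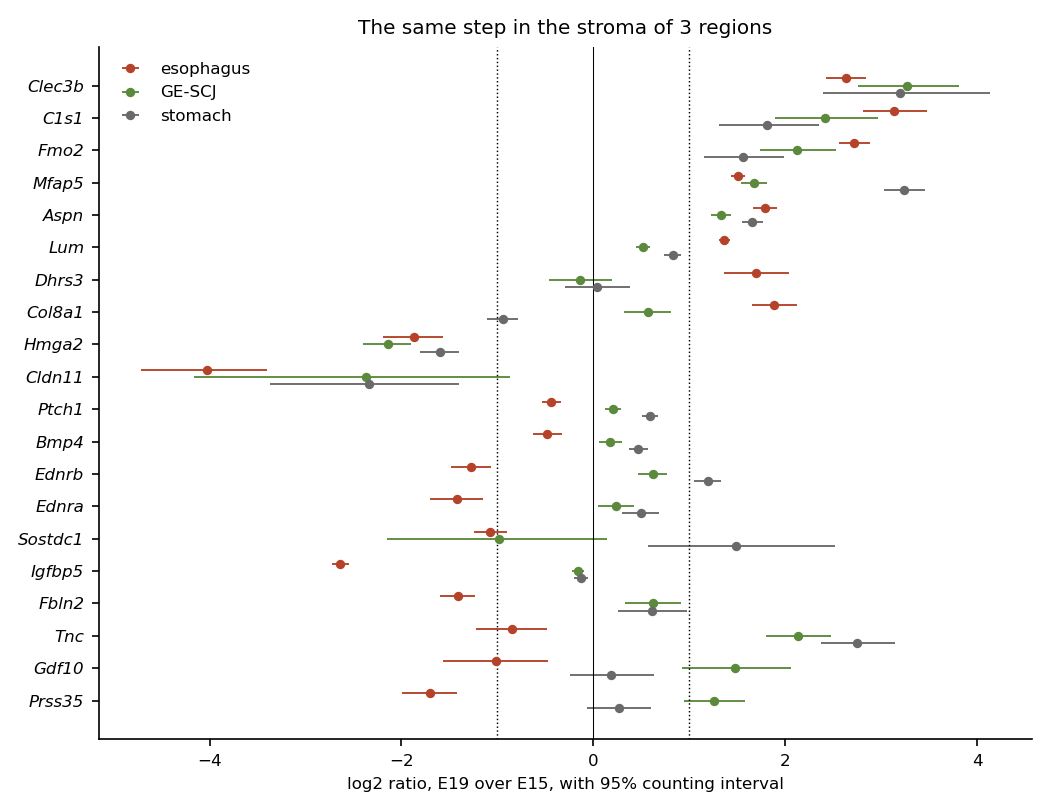
Log2 ratio of E19 over E15 for 20 genes in the stroma of the esophagus (red), GE-SCJ (green) and stomach (gray), with exact 95% counting intervals. *Clec3b*, *C1s1*, *Fmo2* and *Hmga2* lie on the same side in the 3 regions, while *Ednrb*, *Ednra*, *Fbln2*, *Tnc* and *Prss35* lie on opposite sides of 0 in the esophagus and the other regions.

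Against stomach stroma at the same stage, 219 of 8450 genes (2.59%) were at least 2-fold higher in the esophagus at E15 and 207 (2.45%) in the stomach. At E19 the numbers were 305 (3.05%) and 411 (4.11%) of 10009. *Nkx6-1*, a homeobox factor, was at 115 and 99.2 CPM in the esophagus and 3.67 and 3.18 CPM in the stomach. *Tbx18*, a T-box factor, was at 73.2 and 61.0 CPM against 4.19 and 1.97 CPM, and the matrix gene *Thbs4* at 237 and 114 CPM against 1.83 and 1.06 CPM. *Wnt2* was at 19.2 and 22.8 CPM against 0.786 and 1.21 CPM. On the stomach side, the chemokine gene *Ccl11* was at 288 and 287 CPM in the stomach and 21.8 and 14.3 CPM in the esophagus, and the Notch ligand *Dll1* at 25.4 and 24.7 CPM against 1.05 and 1.86 CPM. Levels in the GE-SCJ lay between for *Nkx6-1* (19.6 and 10.1 CPM) and *Ccl11* (163 and 162 CPM).

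Sex-linked and hemoglobin genes also differed between the pools. *Xist*, which is made from the inactive X chromosome, was at 157 CPM (145 to 170) at E15 and 832 CPM (811 to 854) at E19, and the Y-linked *Ddx3y* at 81.9 and 47.1 CPM. Cells with a UMI of *Xist* and none of 4 Y-linked genes made up 11.5% at E15 and 49.5% at E19, and cells with the reverse pattern 50.7% and 27.1%. The GE-SCJ and stomach pools went the same way, with 27.1% and 59.9% and with 11.9% and 38.1%. Hemoglobin genes summed to 385 CPM at E15 and 1814 CPM at E19, and *Hbb-bs* was at 210 CPM (196 to 225) and 1029 CPM (1005 to 1053). The median log2 ratio of the 4 measured hemoglobin genes was 2.18 in the esophagus and 1.93 in GE-SCJ stroma. In stomach stroma it had the other sign, at -0.60. In squamous epithelium of the esophagus the hemoglobin sum was 244 and 4474 CPM, in the neural label 299.5 and 348 CPM, and in the smooth muscle label 3972 and 227 CPM. Of 15 immediate early and heat shock genes 2 were at least 2-fold lower at E19, *Nr4a1* (144 and 52.2 CPM) and *Fosb* (266 and 128 CPM), and none was higher. The list median was -0.33, with 12 genes below 0 and 3 above it, among them the heat shock gene *Hspa1a* at 43.3 and 66.5 CPM. Their part in the other differences was not tested.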

How the data were processed

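Per the labels and methods, the authors counted UMIs with Cell Ranger 6.1.1 on mm10 and assigned cells to a region and stage by tag. They set limits on detected genes and on UMIs, which were their screen for doublets, and a limit on mitochondrial percent. Raw UMI counts were deposited with a label per cell. The mitochondrial percent, the cluster and phase calls are the authors' deposited values. No doublet caller was run here. Of 19550 genes, 16 had no UMI.

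UMIs were summed per stage over cells with the stromal label and esophagus tag. Genes needed 100 UMIs over both stages. Intervals are exact Poisson, Clopper-Pearson or conditional binomial, at 95%. Cells were thinned to 5000 UMIs with seed 1. Groups within a stage used 20 principal components, 15 neighbours and Leiden resolution 0.5 (scanpy 1.11.5). Scripts ran under Python 3.11.15 with pandas 2.3.3, scipy 1.17.1, matplotlib 3.10.9 and numpy 2.4.6. Coordinates are GENCODE M21 on GRCm38.

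Genes named are the 12 with the largest ratio in each direction (200 UMIs or more), the leading members of each list by ratio or level, the 8 in each direction between esophagus and stomach, and the markers and leading genes of clusters. The members and lists were chosen with earlier results of these data known, and *Dlk1*, *Nrtn* and *Rdh10*, which the rule did not name, were picked after their values were seen. Some items are not reported here. On simulated data for this comparison, 200 genes were changed and 9229 genes passed the UMI minimum. All 100 genes with a log2 change of 2.5 and 97 of 100 with 1.5 were counted past 2-fold. So were 2 of 9031 unchanged genes. The simulated counts were Poisson draws around the pooled proportions, without variation between cells, clusters or embryos. They cover counting error only and give no rate of false calls for the real pools.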

Additional observations from a re-analysis of the deposited data

Results flagged for a closer look

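Among the genes lower at E19 in the esophagus, 5 were at least 2-fold higher at E19 in the GE-SCJ and 2 in the stomach, counting genes with at least 100 UMIs in both regions, and the difference between the regions was not tested. The naming rule covers 3 of these genes. *Ednrb*, an endothelin receptor, had a log2 ratio of -1.28 in esophageal stroma and 1.19 in stomach stroma. *Gdf10*, a BMP family ligand, had -1.02 in the esophagus and 1.47 in the GE-SCJ. *Prss35*, a serine protease gene, had -1.71 in the esophagus and 1.26 in the GE-SCJ. In the esophagus *Gdf10* and *Prss35* lay mostly in the authors' cluster 3 at E15, with 41.0 CPM of *Gdf10* and 136 CPM of *Prss35* there and 0.438 and 34.2 CPM in cluster 1. Within cluster 3 alone *Gdf10* was at 41.0 and 151 CPM at the 2 stages, with a log2 ratio of 1.88. *Ednrb* lay in cluster 1, with 175 CPM against 34.2 CPM. The others, named after their values were seen, were *Thbd* (-1.12 in the esophagus, 1.28 in the GE-SCJ and 1.11 in the stomach), *Cpe* (-1.07, and 1.32 in the GE-SCJ) and *Enpp1* (-1.53, and 1.18 in the GE-SCJ).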

How the results depend on the processing

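The counts of 171 genes higher and 121 genes lower at E19, of 9225 genes, depend on depth. They were 222 and 218 of 10881 genes with at least 50 UMIs, and 80 and 29 of 4263 with at least 400. With no filter on low counts they were 1029 and 1603 of 16948. Thinning cells to 5000 UMIs gave 109 and 82 of 6589 genes, of which 92 and 48 were shared with the main lists. Leaving out cells with markers of another type gave 99 and 49 of 4518 genes, of which 58 and 14 were shared with the main lists. Leaving out cells positive for the G2/M list gave 107 and 85 of 6472 genes, of which 91 and 44 were shared. A gene below the UMI minimum in a setting could not be shared. The part of such genes in the lower counts and overlaps was not tested. Other scalings gave 174 to 207 and 88 to 132. The share of mitosis-gene-positive cells at E15 (59.1%) and the share of mitosis-gene-positive cells at E19 (40.6%) were 41.3% and 24.8% when thinned, 76.9% and 68.2% with 1 UMI, 28.0% and 13.9% with 5 UMIs, and 21.0% and 11.5% with *Mki67* and *Top2a* alone. Of 34 list medians, 18 lay above that of all genes. The alternatives left 25 to 34 lists with enough members, of which 12 to 20 lay above, the lowest count being that of cluster 3, where 25 lists were left. The G2/M median was 0.050 without cells with markers of another type.

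*Hbb-bt* was at -0.12 when the top 1% of cells for each gene were dropped and at -0.18 with the smooth muscle label joined. That joining also gave -1.03 for *Actg2*, -0.96 for *Cnn1*, -0.45 for *Lmod1*, -0.87 for *Myh11* and -0.83 for *Tagln*. The alternatives by the authors' clusters were chosen after seeing the data. In cluster 1, 201 and 88 genes were counted, of which 122 and 44 were shared with the main lists. Of the 76 genes lower at E19 with at least 100 UMIs there, 68 had the same sign. The median of all genes in cluster 1 was -0.10, so most genes lay below 0 there. Of the named genes past 2-fold in the whole stroma and with at least 100 UMIs in cluster 1, *Prrx1* (0.24), *Sfrp2* (0.25) and *Slit2* (0.18) had the other sign. In cluster 3, with 50 E19 cells, 75 and 115 of 3080 genes were counted, the collagen median was -0.085 and the S phase median 0.22, and these genes turned: *Adamts5* (-0.44), *Clec3b* (-2.48), *Col13a1* (0.62), *Ednra* (0.78), *Gdf10* (1.88), *Hba-a2* (-0.048), *Mfap5* (-1.85), *Sema3c* (-1.70), *Tagln* (-2.05) and *Thbs4* (0.42). These have the other sign in the whole stroma, and the cause was not tested. The number of groups within a stage was 5 to 7 at E15 and 6 to 9 at E19. No paired analysis was possible because each stage is 1 pooled sample, which also leaves no replicate to leave out.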

Other observations

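Gene groups that the comparisons above do not describe lay mostly close to the median of all genes. Of 42 measured transcription factors of foregut mesenchyme, 1 was at least 2-fold higher at E19 and 4 lower, with a median of -0.15. The higher one, *Klf9*, a factor that glucocorticoids and thyroid hormone induce, was at 60.4 and 142 CPM and had the same ratio within the authors' cluster 1 (1.25, against 1.23 in all cells). Among the lower ones, *Ebf2* was at 24.4 and 2.44 CPM and *Prrx1* at 59.6 and 22.2 CPM, and within cluster 1 the ratio of *Prrx1* was 0.24, while *Ebf2* had 4 UMIs there, too few for a ratio. The balance of the list was reversed in cluster 1, where 4 of 40 measured factors were at least 2-fold higher and 1 lower, with a median of -0.11. The most abundant factors, *Nfib* and *Nfia*, were at 988 and 930 CPM and at 698 and 721 CPM. Of 13 measured glucocorticoid response genes 2 were higher and none lower, with a median of 0.29.

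Of 19 measured imprinted growth genes, 1 was past 2-fold, *Peg10*, at 123 and 52.2 CPM, with a ratio of -0.26 in cluster 1. Over all cells 14 of the 19 had a ratio below 0, whereas in cluster 1 13 of 19 had one above 0. The median of all genes was -0.10 in both, so most genes lay below 0. Within cluster 1, 2 of the 19 were at least 2-fold higher and 1 lower. None of 12 measured hypoxia response genes was past 2-fold, and their median was -0.25, against -0.10 for all genes. A ratio below 0 was seen in 10 of them, among them the glycolytic *Pgk1* (172 and 108 CPM) and *Ldha* (292 and 216 CPM). In the TGF-beta list *Ccn1*, a matricellular protein gene, was the 1 of 12 past 2-fold, at 716 and 315 CPM, and it kept its ratio in cluster 1 (-1.21). In the Notch list *Hes1* was the 1 of 5, at 251 and 90.6 CPM. None of 10 cell cycle inhibitors was past 2-fold, and the most abundant, *Cdkn1c*, was at 1410 and 1155 CPM. Of 12 measured lipid genes 1 was lower, *Angptl4*, and of 4 measured genes of tracheal and lung mesenchyme none was past 2-fold.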
